A study of Homo sapiens with 24 samples.

Results

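The MYC, MAX and MXI1 network was examined as 10 genes picked by symbol from a list: MYC, MAX, MXI1, MXD1, MXD3, MXD4, MNT, MLX, MLXIP and MGA. All 10 were found among the 23106 gene symbols counted, and all 10 were among the 11735 genes that passed the filter on low counts. In hypoxia, the antagonist transcript MXI1 was 105% higher in DMSO-treated cells and 74.4% higher in ITE-treated cells. MYC and MAX transcripts passed the test in no comparison, and ITE moved no member past the threshold at either oxygen level. MNT and MXD4, a pair of further antagonists, also rose in hypoxia with ITE. MNT was 75.2% higher with ITE and 67.4% higher with DMSO, where it missed the threshold. No member's hypoxic change was shown to depend on ITE. The 3 calls in hypoxia with ITE, MXI1 included, were lost when only the compared groups were modelled, and those of MNT and MXD4 also when single libraries were left out.

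RNA was sequenced from RCC4+VHL cells, a clear cell renal carcinoma line that lacks its own functional VHL and carries VHL restored by stable transfection, so every group had VHL and every group came from 1 clone. VHL marks the oxygen-labile subunits of the hypoxia-inducible factor HIF for destruction in oxygenated cells. ITE is a ligand of the aryl hydrocarbon receptor AHR, which shares the partner protein ARNT with HIF. Each of the 4 groups had 6 replicates. Cells in normoxia + DMSO and normoxia + ITE were at 21% oxygen, those in the matching hypoxia groups at 0.5% oxygen, each with 0.1% DMSO as vehicle or 100 nM ITE for 6 h. All cells were kept in medium with charcoal-stripped serum before treatment. The comparisons ask how hypoxia alters the network with either vehicle or ligand, how the ligand alters it at either oxygen level, and whether the hypoxic change depends on the ligand (the interaction).

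MYC pairs with MAX and binds the E-box CACGTG to activate genes of ribosome, nucleotide and energy metabolism. MXI1 (also called MXD2), MXD1, MXD3, MXD4 and MNT pair with MAX on the same sequence, recruit SIN3 and histone deacetylases, and repress those genes, so they act as antagonists of MYC. MGA is a large MAX partner of a Polycomb-type repressor complex, and MLX is a MAX-like protein that pairs with MLXIP (MondoA) in the response to glucose and also with some of the antagonists. MXI1 is known as a HIF target gene, and the balance of MYC and its antagonists is a long-studied question in renal carcinoma.

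The letters before the transcription starts are shown for MXI1, the member with the clearest change, and for the 3 members whose windows hold the E-box (MXD4, MNT and MLX), of which MLX did not pass the test in any comparison. Each run is the 250 bases before an annotated start, read 5′ to 3′ on the strand of the gene, from RefSeq promoters (GRCh38.p14 table) placed on GRCh37 by an exact and unique match. Capitals mark 3 motifs searched on both strands. The first is the E-box, CACGTG. Another is the core bound by HIF, which is ACGTG and is also contained within every E-box. The last is the core bound by AHR, which HIF can also bind, GCGTG.
MXI1 start 1, chr10:111967113-111967362, plus strand: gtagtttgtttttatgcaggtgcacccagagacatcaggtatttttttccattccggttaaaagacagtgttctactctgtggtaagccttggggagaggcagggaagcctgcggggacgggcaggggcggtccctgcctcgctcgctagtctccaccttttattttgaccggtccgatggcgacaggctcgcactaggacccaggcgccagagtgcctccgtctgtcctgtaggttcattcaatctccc
MXI1 start 2, chr10:111969739-111969988, plus strand: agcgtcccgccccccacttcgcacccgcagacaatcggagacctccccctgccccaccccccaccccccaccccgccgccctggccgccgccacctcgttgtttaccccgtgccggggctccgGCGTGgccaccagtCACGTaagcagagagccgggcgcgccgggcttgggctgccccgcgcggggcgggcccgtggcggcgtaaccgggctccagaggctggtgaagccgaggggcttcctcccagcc
MXI1 start 3, chr10:111985504-111985753, plus strand: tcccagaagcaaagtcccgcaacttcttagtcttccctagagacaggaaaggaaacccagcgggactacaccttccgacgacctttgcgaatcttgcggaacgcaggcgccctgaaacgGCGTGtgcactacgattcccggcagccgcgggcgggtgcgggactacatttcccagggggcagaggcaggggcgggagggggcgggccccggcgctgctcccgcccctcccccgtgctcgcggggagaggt
MXD4, chr4:2263837-2264086, minus strand: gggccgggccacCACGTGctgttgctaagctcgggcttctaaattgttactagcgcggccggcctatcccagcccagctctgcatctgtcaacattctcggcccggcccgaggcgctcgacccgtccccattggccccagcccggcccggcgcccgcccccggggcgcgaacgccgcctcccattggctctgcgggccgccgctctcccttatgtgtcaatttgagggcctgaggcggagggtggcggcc
MNT, chr17:2304355-2304604, minus strand: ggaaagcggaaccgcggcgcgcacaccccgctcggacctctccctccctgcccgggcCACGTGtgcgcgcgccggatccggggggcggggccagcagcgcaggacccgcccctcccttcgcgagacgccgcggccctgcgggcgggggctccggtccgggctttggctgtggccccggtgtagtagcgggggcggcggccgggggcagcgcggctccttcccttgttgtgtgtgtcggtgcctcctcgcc
MLX, chr17:40718868-40719117, plus strand: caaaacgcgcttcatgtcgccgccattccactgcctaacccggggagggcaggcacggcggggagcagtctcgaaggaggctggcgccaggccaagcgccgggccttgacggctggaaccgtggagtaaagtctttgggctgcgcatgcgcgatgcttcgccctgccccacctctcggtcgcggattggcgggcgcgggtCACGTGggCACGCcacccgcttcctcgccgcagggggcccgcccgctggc

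The second MXI1 window holds GCGTG 127 bases before the start and, on the other strand, ACGTG 113 bases before it, so that their first letters lie 14 bases apart. The third holds a single GCGTG 131 bases before the start, and the first holds none of the 3 motifs. The counts were made per gene symbol and sum over all MXI1 starts, so which start gave the reads was not measured. In MXD4 the E-box lies 238 bases before the start, in MNT 193 bases and in MLX 50 bases, with a GCGTG on the other strand of MLX at 42 bases. Windows were found for 9 of the 10 members and number 14. The E-box was in 3 of these 14, ACGTG in 6 and GCGTG in 7. Over all 35116 RefSeq windows of this length, 6.34% hold CACGTG, 18.5% hold ACGTG and 32.2% hold GCGTG, and 43.2% hold at least one of the latter pair. A match is a description of letters and was not tested for binding here.

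Library totals ranged from 770094 to 93851342 counts (median 7981993), so that 3 counts corresponded to between 0.0294 and 4.12 CPM (counts normalised by TMM to libraries of equal size), a floor that covers counting error only. The shallowest library was hypoxia + DMSO replicate 2. Hypoxia + ITE replicate 6 stood apart: its genes lay a median of 0.755 away from the other libraries of its group on the log2 scale, against 0.11 to 0.433 in the other 23. Its deviations rose with the GC content of a gene's exons (rank correlation 0.656 across 10653 genes, which are not independent), against -0.465 to 0.152 in the other libraries. Normoxia + DMSO replicate 4 held 97 counts of EGLN3, 13 of CA9, 17 of LRP2 and 737 of COL1A1, whereas the highest in any other library was 2, 0, 1 and 231. It also held 81 counts of DCN and 47 of LUM (fibroblast), 22 of PECAM1, 18 of CDH5 and 14 of KDR (endothelium) and 6 of PTPRC (blood), against at most 0, 6, 0, 5, 1 and 0 elsewhere. The other blood markers did not exceed the remaining libraries: CD3E, HBB and CD68 had 0, 0 and 352 counts, against at most 1, 2 and 1162. Scaled for depth, CDH5 was at 0.663 CPM there, close to the highest value elsewhere, 0.595 CPM. Member results are therefore given with and without these 3 libraries where a call or value turned on them. Of 5 HIF targets set as a check, PDK1, ANKRD37 and PFKFB4 rose by 1.61, 2.81 and 3.41 in hypoxia with DMSO (log2), whereas CA9 and EGLN3 had too few counts to be tested, with at most 2 in any hypoxia library. Of 3 AHR targets, CYP1B1 and TIPARP rose by 2.51 and 1.35 with ITE in normoxia, and AHRR was at 0.10 (adjusted p = 1). With ITE in hypoxia only CYP1B1 passed by edgeR, at 2.35 (adjusted p = 6.18e-08). TIPARP was at 0.67 there (adjusted p = 0.494) and AHRR at -0.42 (adjusted p = 0.799). Of 10 renal line markers 7 had a mean of at least 1 CPM in every group, PAX8 and KRT18 among them, whereas LRP2, CUBN and CA9 did not. One of them, KRT19, rose in hypoxia with ITE by 0.89 (adjusted p = 0.0375), which was 0.42 without hypoxia + ITE replicate 6 (adjusted p = 0.063). Of the 11 markers of fibroblasts, endothelium and blood, only COL1A1 and CD68 reached that group mean, and DCN and LUM passed 1 CPM in the single library named above. In bulk RNA a lower value from fewer cells of a kind cannot be told apart from less RNA per cell.

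MYC was the most abundant member per length in every group. Its level was 28.1 ± 3.60 CPM per kb of exon in normoxia + DMSO, 26.2 ± 2.40 in normoxia + ITE, 30.5 ± 1.86 in hypoxia + DMSO and 26.6 ± 5.53 in hypoxia + ITE (SD, n = 6). MXD4 came next, at 9.89 to 14.7 CPM per kb. The ranges of MYC and MXD4 overlapped only in hypoxia + ITE, where replicate 6 had MYC at 16.9 and MXD4 at 24.4 CPM per kb. In the rest of that group MYC was at least 25.6 CPM per kb, above every value of MXD4. MXI1 ranked 5 in both normoxia groups (4.49 and 4.19 CPM per kb), with a range that overlapped those of MLX and MXD3, its neighbours in the order. In both hypoxia groups it ranked 3, at 9.22 ± 1.22 CPM per kb with DMSO and 7.17 ± 2.28 with ITE. With DMSO its range, from 7.24 CPM per kb, lay above that of MLX, the next member. It overlapped that of MXD4 and also that of MAX, ranked below MLX, which reached 7.56 CPM per kb. With ITE it overlapped that of MAX, the next member there. MXD1 was lowest in every group, at 0.306 to 0.437 CPM per kb. These lengths are of all annotated exons joined, so a level per kb is understated for a gene that uses few of them.

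**Figure D1:**
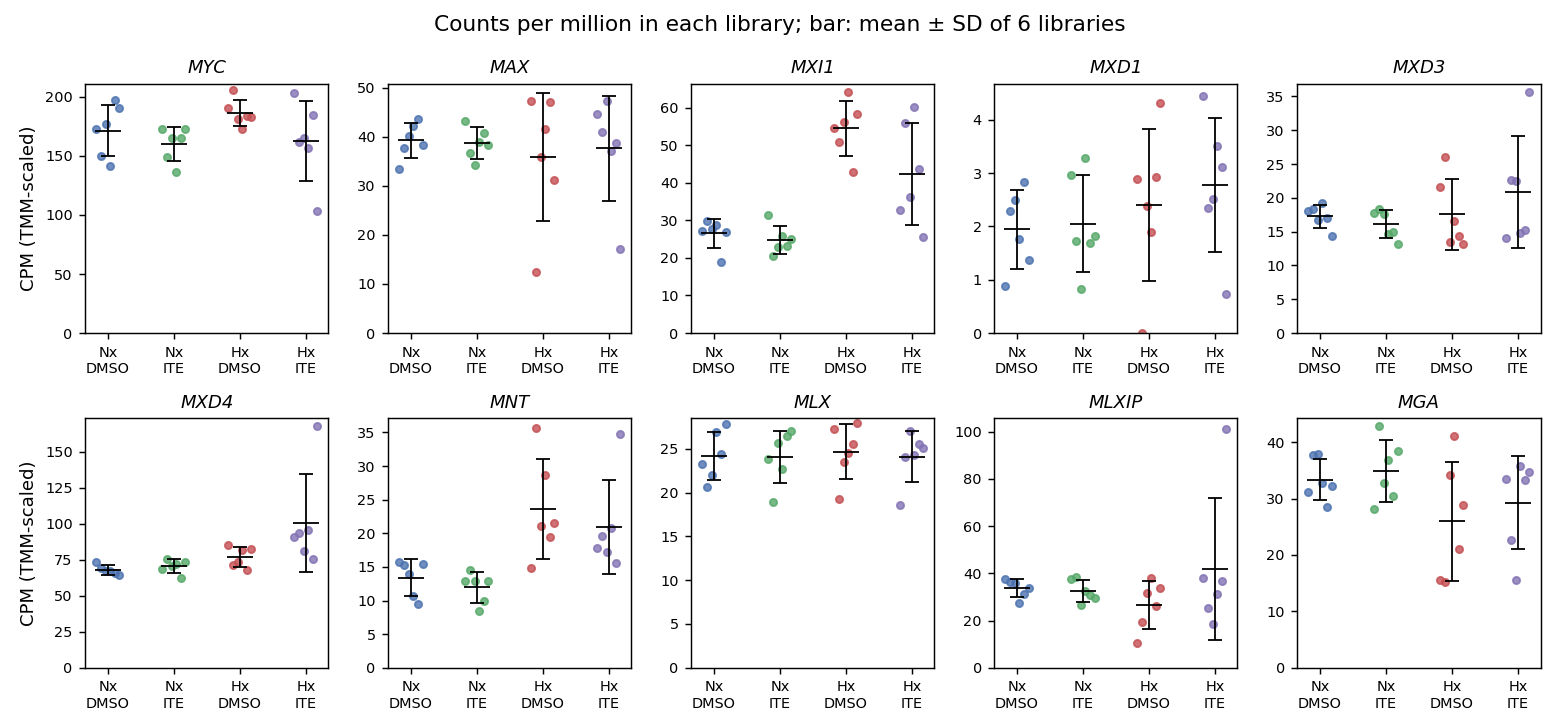
Each panel plots 1 member in CPM (y axis, from 0) for the 6 libraries of each group (Nx, normoxia at 21% oxygen; Hx, hypoxia at 0.5% oxygen), with black bars for the mean ± SD. MXI1 in hypoxia + DMSO, from 42.8 to 64.1 CPM, lay above its whole normoxia + DMSO range of 19.0 to 29.9 CPM, and the single high points of MXD4, MNT, MXD3 and MLXIP in hypoxia + ITE are from replicate 6.

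MYC, the activating partner, had a lowest, median and highest value of 142, 175 and 197 CPM in normoxia + DMSO. In normoxia + ITE these were 136, 165 and 173 CPM. In hypoxia + DMSO they were 173, 184 and 206 CPM, and in hypoxia + ITE 103, 164 and 204 CPM. All groups overlapped, and the lowest value of all came from hypoxia + ITE replicate 6. The fitted log2 change of MYC was 0.12 in hypoxia with DMSO (95% interval -0.14 to 0.37, adjusted p = 0.832, edgeR quasi-likelihood test with Benjamini-Hochberg adjustment over 11735 genes, as for all adjusted p below). In hypoxia with ITE it was 0.02 (-0.23 to 0.27, adjusted p = 0.961). With ITE it was -0.10 in normoxia (-0.35 to 0.15) and -0.20 in hypoxia (-0.45 to 0.06). Without hypoxia + ITE replicate 6 the change was 0.11 in hypoxia with ITE and -0.10 with ITE in hypoxia. Both hypoxia intervals of MYC ended below the fitted hypoxia changes of MXI1.

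MAX, the partner that MYC and its antagonists share, had medians of 39.3 CPM in normoxia + DMSO, 38.7 in normoxia + ITE, 38.6 in hypoxia + DMSO and 39.9 in hypoxia + ITE. Its spread was wide in hypoxia, from 12.4 to 47.3 CPM with DMSO and from 17.1 to 47.3 with ITE, against 33.4 to 43.6 and 34.2 to 43.2 in the normoxia groups. The low value with DMSO came from 9 counts in replicate 2, and that with ITE from replicate 6. The hypoxia change of MAX was -0.06 with DMSO (-0.45 to 0.33) and -0.04 with ITE (-0.43 to 0.35), with adjusted p of 0.96 and 0.933. The change with ITE became 0.09 without hypoxia + ITE replicate 6. The span of MAX overlaps that of FNTB on the opposite strand. The strand setting of the counting was not given and shared exons were not sought, so an effect on its counts is unknown.

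MXI1, which represses through SIN3, lies on the plus strand of chromosome 10 from 111967363 to 112047123 (GRCh37). It had a lowest, median and highest value of 19.0, 27.3 and 29.9 CPM in normoxia + DMSO and of 42.8, 55.4 and 64.1 CPM in hypoxia + DMSO. All 6 hypoxia libraries lay above all 6 normoxia libraries. Across all genes tested, 1.8% had hypoxia groups above normoxia without overlap in this comparison. MXI1 rose by 1.03 on the log2 scale (SE 0.17, 95% interval 0.69 to 1.38, adjusted p = 0.000227). It was the only 1 of the 10 members past the threshold in hypoxia with DMSO, where 1.16% of all genes tested were called higher and 0.136% lower. In all 10 alternatives fitted the change lay between 1.02 and 1.06, and it passed the threshold in each.

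With ITE, MXI1 had a lowest, median and highest value of 20.5, 24.1 and 31.3 CPM in normoxia and of 25.6, 39.9 and 60.0 CPM in hypoxia. The groups overlapped through 1 library, hypoxia + ITE replicate 6 at 25.6 CPM, and the other 5 hypoxia libraries lay above the normoxia range. The log2 change was 0.80 (SE 0.17, 95% interval 0.46 to 1.14, adjusted p = 0.0055). Without replicate 6 it was 0.92 (adjusted p = 0.000137). With only the compared groups in the model the same change of 0.80 had a larger error (SE 0.20) and missed the threshold (adjusted p = 0.0926).

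**Figure D2:**
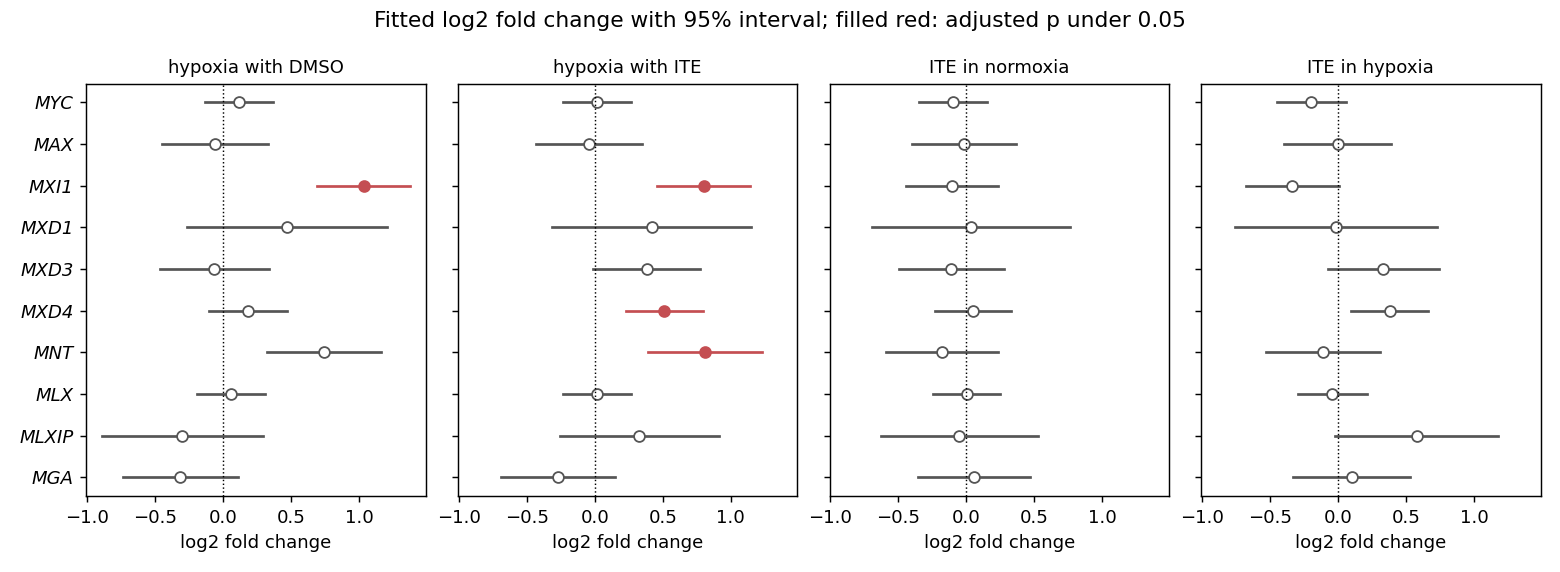
Each panel is 1 comparison, and each row 1 member, with the fitted log2 fold change (x axis) and its 95% interval. Filled red points passed an adjusted p under 0.05: MXI1 at 1.03 with DMSO, and MXI1 at 0.80, MNT at 0.81 and MXD4 at 0.51 with ITE, whereas no member passed in either ITE comparison.

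MNT, the broadly expressed antagonist that also pairs with MLX, had a lowest, median and highest value of 9.48, 14.6 and 15.7 CPM in normoxia + DMSO and of 14.9, 21.3 and 35.7 CPM in hypoxia + DMSO. The groups overlapped through the lowest hypoxia library, and 5 of the 6 lay above the normoxia range. The log2 change in hypoxia with DMSO was 0.74 (SE 0.20, 95% interval 0.32 to 1.16), with an adjusted p of 0.0722 that missed the threshold. DESeq2 put the same change under it (0.75, adjusted p = 0.0217), as did leaving out hypoxia + ITE replicate 6, which enters the shared estimate of spread (0.73, adjusted p = 0.0134). Without normoxia + DMSO replicate 4 it was 0.68 (adjusted p = 0.188), and without hypoxia + DMSO replicate 2, whose value came from 26 counts, 0.65 (adjusted p = 0.151).

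With ITE, MNT ranged from 8.48 to 14.5 CPM in normoxia (median 12.9) and from 15.6 to 34.8 CPM in hypoxia (median 18.7). The groups did not overlap, which held for 1.21% of all genes tested in the upward direction in this comparison. MNT rose by 0.81 (SE 0.20, 95% interval 0.39 to 1.23, adjusted p = 0.0297). Without hypoxia + ITE replicate 6, the highest library, the change was 0.62 and missed the threshold (adjusted p = 0.0628), although the other 5 libraries still lay above the normoxia range. With only the compared groups modelled, adjusted p was 0.118.

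MXD4, the most abundant antagonist per length, ranged from 64.3 to 73.7 CPM in normoxia + DMSO (median 67.2) and from 67.7 to 85.5 CPM in hypoxia + DMSO (median 77.6). The groups overlapped, with 3 hypoxia libraries above the normoxia range, and the log2 change was 0.18 (SE 0.14, adjusted p = 0.734). With ITE it ranged from 62.2 to 75.5 CPM in normoxia (median 71.5) and from 75.5 to 168 CPM in hypoxia (median 92.0). Here 5 hypoxia libraries lay above the normoxia range and the lowest just under its top. MXD4 rose by 0.51 (SE 0.14, 95% interval 0.23 to 0.79, adjusted p = 0.0432). Without hypoxia + ITE replicate 6, the library at 168 CPM, the change was 0.31 with an adjusted p of 0.0465. Adjusted p was 0.0559 without normoxia + DMSO replicate 4, 0.0575 with no filter on low counts and 0.298 with only the compared groups modelled.

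MXI1, MNT and MXD4 were thus the 3 of 10 members called higher in hypoxia with ITE, where 1.89% of all genes tested were called higher, and no member was called lower, against 0.46% of all genes. The median log2 change over the 10 members was 0.09 with DMSO and 0.35 with ITE, beside -0.00334 and 0.02 over all genes tested. Without hypoxia + ITE replicate 6 the member median with ITE was 0.15, beside 0.01 over all genes. The members varied with GC content in the library that stood apart. MXD4, MNT, MXD3 and MLXIP have the GC-richest exons of the 10 (60.1%, 59.7%, 58.4% and 55.9%), and hypoxia + ITE replicate 6 lay above the mean of its group for them by 0.95, 0.94, 1.03 and 1.81 (log2). MYC (51.7%), MAX (49.2%), MXI1 (47.6%) and MXD1 (42.7%) lay below it there, at -0.75, -1.27, -0.79 and -1.97, whereas MLX (53.2%) and MGA (42.4%) were at 0.08 and 0.37. This library gave the highest or lowest value of its group for 8 of the 10 members. The part of GC content in the changes of MXD4 and MNT was not tested beyond the values given without this library.

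MXD3, an antagonist known from proliferating cells, had medians of 17.5, 16.3, 15.5 and 18.9 CPM in the groups as ordered above, and hypoxia changes of -0.06 with DMSO (-0.47 to 0.34) and 0.38 with ITE (-0.01 to 0.77, adjusted p = 0.264). The value with ITE was 0.19 without hypoxia + ITE replicate 6, which held 35.7 CPM. The span of MXD3 overlaps RAB24 on its own strand and PRELID1 on the other. Shared exons were not sought, so an effect on its counts is unknown. MXD1, the antagonist of differentiating cells, was scarce, with group medians of 2.03, 1.77, 2.63 and 2.82 CPM and no counts at all in hypoxia + DMSO replicate 2, where 3 counts would have been 4.12 CPM. Its hypoxia changes of 0.47 with DMSO and 0.42 with ITE had SEs of 0.36, so neither a change of 1 on the log2 scale nor no change was outside the error at this depth. MXD1 also overlaps SNRNP27 on its own strand.

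The remaining members belong to the wider network. MLX, the partner of MLXIP, was the steadiest, with group means of 24.2, 24.1, 24.7 and 24.1 CPM and hypoxia changes of 0.06 (-0.19 to 0.31) and 0.02 (-0.23 to 0.26). It overlaps PSMC3IP on the opposite strand. MLXIP, the glucose-responsive factor, had medians of 34.9, 31.7, 29.0 and 34.0 CPM, and hypoxia changes of -0.30 with DMSO (-0.89 to 0.29) and 0.33 with ITE (-0.26 to 0.91). The second value became -0.16 without hypoxia + ITE replicate 6, which held 101 CPM against at most 37.9 in the rest of its group. MGA, the Polycomb-type repressor, had medians of 32.5, 34.8, 25.0 and 33.4 CPM and hypoxia changes of -0.31 (-0.74 to 0.11) and -0.27 (-0.69 to 0.15), with adjusted p of 0.673 and 0.47.

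Set against each other per kb of exon, the 5 antagonists MXI1, MXD1, MXD3, MXD4 and MNT summed to 19.9 ± 1.25 CPM per kb in normoxia + DMSO and 19.5 ± 1.15 in normoxia + ITE, and to 27.2 ± 2.51 and 29.1 ± 6.27 in the hypoxia groups with DMSO and ITE (SD, n = 6). The hypoxia libraries ranged from 22.8 to 29.8 with DMSO and from 23.8 to 40.4 with ITE, all above the highest normoxia library at 21.2. The 40.4 came from hypoxia + ITE replicate 6, and the rest of its group reached at most 30.5. MXI1 made up 22.5% ± 2.43 of this sum in normoxia + DMSO and 33.8% ± 2.76 in hypoxia + DMSO, and 21.4% ± 2.75 and 25.6% ± 8.43 in the corresponding groups with ITE. In hypoxia + ITE replicate 6 the MXI1 share was 10.7%, against 22.6% to 33.7% in the rest of its group. MXD4 was the largest component throughout, at 49.9%, 52.5%, 41.3% and 49.7% in the order of groups used above. MXD3 made up 18.3%, 17.4%, 13.5% and 14.9% in the same order. MNT contributed 7.02% to 9.92% and MXD1 1.42% to 1.64%.

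MYC over the summed antagonists was 1.43 ± 0.263 in normoxia + DMSO, 1.35 ± 0.149 in normoxia + ITE, 1.13 ± 0.123 in hypoxia + DMSO and 0.975 ± 0.341 in hypoxia + ITE. Hypoxia + ITE replicate 6 had the lowest ratio, 0.418, against 0.85 to 1.36 in the rest of its group. The ranges overlapped between every hypoxia group and its normoxia counterpart. The ratio of MYC to MXI1 alone was 6.49 ± 1.93 and 6.35 ± 0.881 in normoxia, and 3.37 ± 0.581 and 3.96 ± 1.25 in hypoxia, with DMSO and ITE respectively. With DMSO the hypoxia libraries ran from 2.60 to 4.16 and the normoxia libraries from 4.76 to 10.1, without overlap, whereas with ITE the hypoxia libraries reached 6.02 and overlapped a normoxia range that began at 5.12. These sums and ratios are of transcripts, were formed after the changes of their parts were known, and were not tested. Their group means were not formed without hypoxia + ITE replicate 6.

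**Figure D3:**
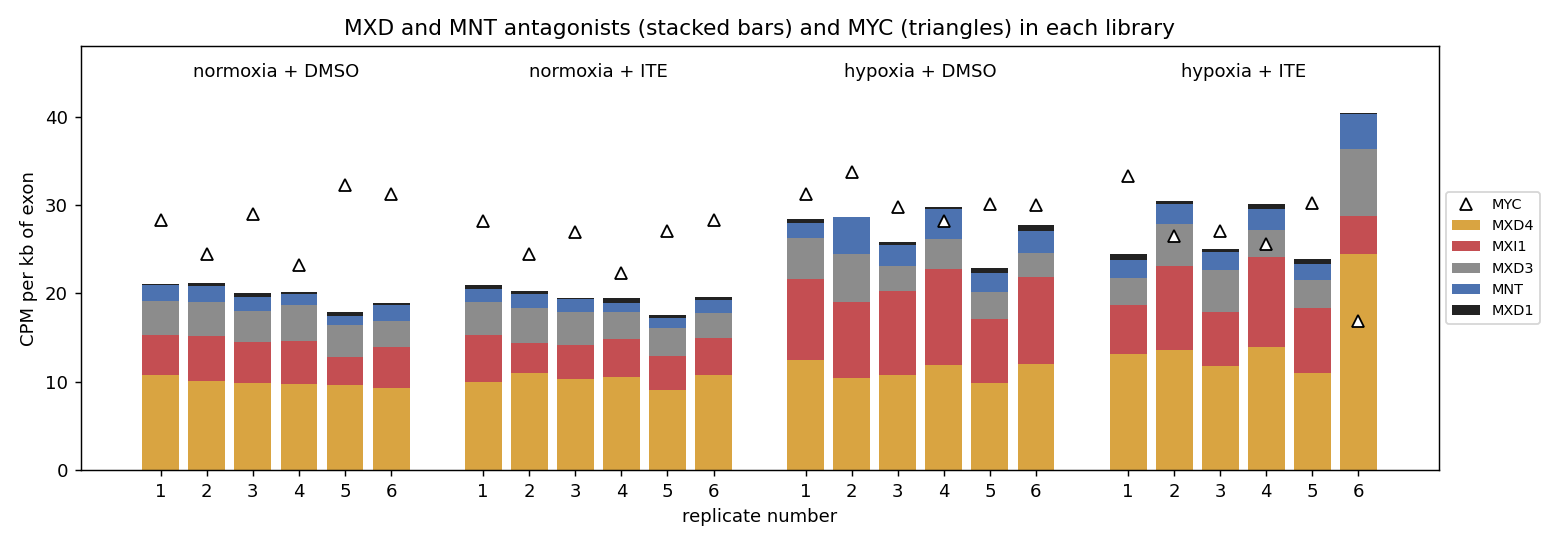
Stacked bars give the 5 antagonists and open triangles MYC, in CPM per kb of exon (y axis, from 0), for replicates 1 to 6 of each group. The red MXI1 segment thickens from a mean of 22.5% of the bar in normoxia + DMSO to 33.8% in hypoxia + DMSO, and hypoxia + ITE replicate 6 alone has a bar of 40.4 with MYC at 16.9.

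ITE did not move any member past the threshold. In normoxia, 0 of 10 members were called by edgeR, where 0.0511% of all genes tested were called higher and 0% lower. By DESeq2 0 members were called (0.0754% of all genes) and 0 had an unadjusted p under 0.05 (1.46% of all genes). The member changes lay between -0.18 (MNT) and 0.06 (MGA). In hypoxia, 0 of 10 were called by edgeR, where 0.0597% of all genes were called higher and 0% lower, and 0 by DESeq2 (0.0531% of all genes). At an unadjusted p under 0.05 there was 1 of 10, beside 9.56% of all genes. It was MXD4, at 0.38 (95% interval 0.09 to 0.67, adjusted p = 0.494), which was 0.18 without hypoxia + ITE replicate 6. MXI1 was lower with ITE in hypoxia by a log2 difference of -0.34 whose interval, -0.68 to 0.00479, held 0 (adjusted p = 0.529), and this was -0.22 without that library. MLXIP was at 0.58 with all libraries and at 0.08 without it, and MNT at -0.11 and -0.28.

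The interaction asks whether the hypoxic change was different with ITE. No member passed by edgeR, DESeq2 or an unadjusted p under 0.05 (0 of 10 each). Of all genes 0% passed in either direction by edgeR and 0% by DESeq2, and 3.19% had an unadjusted p under 0.05. The difference between the hypoxic changes of MXI1 with ITE and with DMSO was -0.23 with an interval of -0.71 to 0.25, so a smaller rise with ITE by up to 0.71 was within the error of these libraries. For MNT it was 0.07 (-0.52 to 0.66) and for MXD4 0.33 (-0.07 to 0.73). Without hypoxia + ITE replicate 6 these differences were -0.11 for MXI1, -0.10 for MNT, whose sign turned, and 0.13 for MXD4. The hypoxic changes of MNT and MXD4, called with ITE but not with DMSO, are therefore not shown to differ between ITE and DMSO. The comparisons share groups, since normoxia + DMSO serves both hypoxia with DMSO and ITE in normoxia, so their values are not independent.

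The proteins that the network recruits or that control MYC were examined as lists. Over all genes tested, 9.47% had an unadjusted p under 0.05 in hypoxia with DMSO and 20.1% in hypoxia with ITE, and DESeq2 called 1.86% and 6.01%, the shares against which the list counts are read. Of 15 corepressors and coactivators, among them SIN3A, HDAC1 and the acetyltransferase scaffold TRRAP, all 15 were tested and 0 were called by edgeR or DESeq2 in either hypoxia comparison, with 2 at an unadjusted p under 0.05 in each. Their median change was 0.00 with DMSO and -0.04 with ITE. Of 11 genes of MYC protein turnover, 0 were called by edgeR or DESeq2 in hypoxia with DMSO (2 at an unadjusted p under 0.05, median 0.02). In hypoxia with ITE 1 was called by edgeR, as lower, beside 3 by DESeq2 and 3 at an unadjusted p under 0.05 (median 0.05). The gene called by edgeR was AURKA, the mitotic kinase known to stabilise the related N-MYC protein. AURKA had a lowest, median and highest value of 106, 139 and 159 CPM in normoxia + ITE and of 48.5, 97.2 and 111 CPM in hypoxia + ITE, ranges that overlapped. It fell by 0.60 on the log2 scale in hypoxia with ITE (SE 0.14, adjusted p = 0.0172), and was at -0.37 in hypoxia with DMSO (adjusted p = 0.321). In the DMSO groups AURKA ranged from 129 to 151 CPM in normoxia and from 92.6 to 127 CPM in hypoxia, without overlap. Adjusted p with DMSO was 0.0292 with only the compared groups modelled and 0.022 without hypoxia + ITE replicate 6. By DESeq2 it was 0.203, and with the replicate block 0.283. The difference between the hypoxia changes of AURKA, -0.23, did not pass the test (adjusted p = 0.915). Without hypoxia + ITE replicate 6 its change with ITE was -0.48 (adjusted p = 0.00432), and with only the compared groups modelled adjusted p was 0.2.

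The targets were examined in the same way. Of 30 genes of ribosome and nucleotide synthesis that MYC is known to activate, such as NCL, ODC1 and CAD, 0 were called by edgeR in hypoxia with DMSO (0 by DESeq2 and 3 at an unadjusted p under 0.05) and 0 in hypoxia with ITE (3 by DESeq2 and 8 unadjusted). Their median changes were -0.03 and 0.01, with 14 and 15 of the 30 above 0. Of 6 genes that MYC is known to repress, 5 were tested and 1 was called higher in each hypoxia comparison. It was NDRG1, which is also a known HIF target, at 33.2 ± 6.02 CPM in normoxia + DMSO and 316 ± 58.6 in hypoxia + DMSO (SD, n = 6). NDRG1 rose by 3.25 with DMSO (adjusted p = 5.68e-15) and by 2.96 with ITE (adjusted p = 5.07e-14). The other 4, among them the cell cycle inhibitor CDKN1A at -0.20 with DMSO, lay between -0.20 and 0.27 over both comparisons, and the list medians were -0.12 and -0.03. The pair of genes activated by MLXIP and MLX, TXNIP and ARRDC4, were at -0.37 and -0.15 with DMSO and -0.38 and -0.52 with ITE, none of them called (0 by edgeR, 0 by DESeq2 and 0 unadjusted). The paralogues MYCN and MLXIPL did not pass the filter, with at most 0.552 and 0.106 CPM in any library. MYCL1 did, at group means of 1.36 to 1.76 CPM, and was not called (0 by edgeR, 0 by DESeq2 and 0 unadjusted in both hypoxia comparisons).

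**Figure D4:**
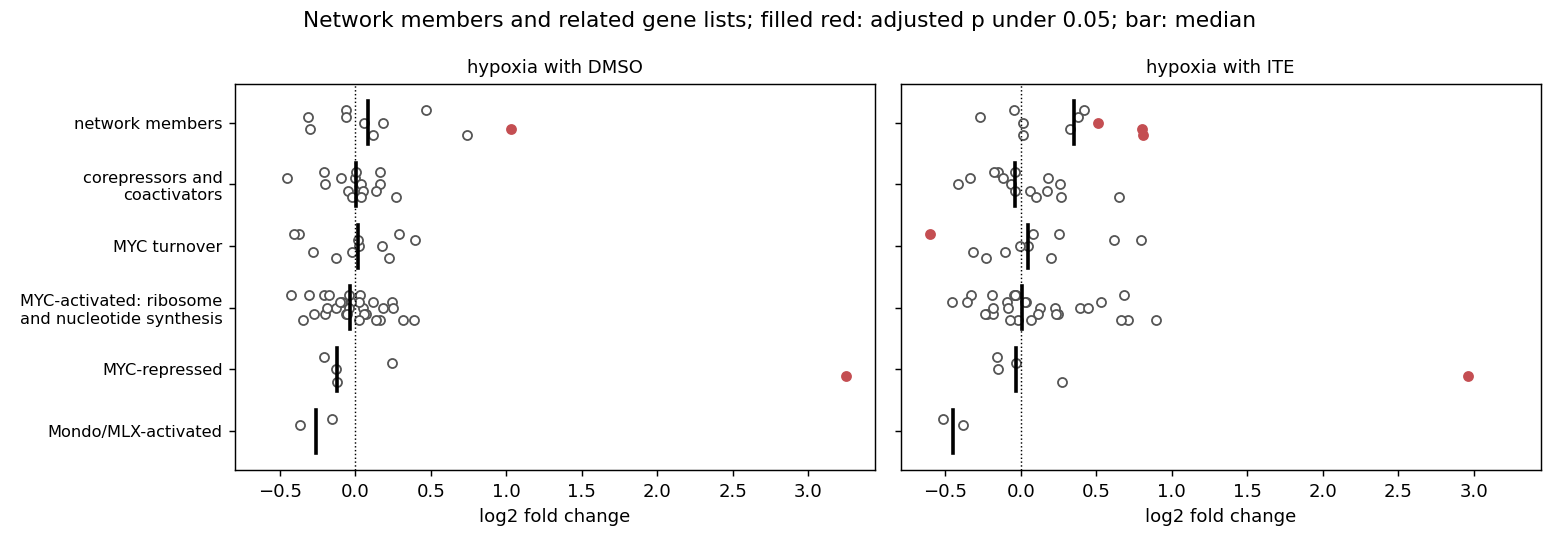
Points are single genes by their fitted log2 fold change in hypoxia with DMSO (left) and with ITE (right), in rows for the 10 members and 5 related lists, with a black bar at each list's median. Filled red points passed an adjusted p under 0.05: outside the members these were NDRG1, at 3.25 and 2.96, and AURKA, at -0.60 with ITE, whereas the 30 MYC-activated genes centre on -0.03 and 0.01.

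The genes whose 4 group means lay nearest to those of MXI1 were sought among 11624 genes with a mean of at least 1 CPM, by the root mean square difference of centred log2 means over 4 groups. They were FAM110C (0.03), PLOD2 (0.03), TSPAN2 (0.05), ZNF654 (0.06) and UPRT (0.07). PLOD2, a collagen lysyl hydroxylase, was the most abundant of them, with an average of 384 CPM over all libraries. FAM110C stood at -0.12 in normoxia + ITE, 0.97 in hypoxia + DMSO and 0.63 in hypoxia + ITE relative to normoxia + DMSO (log2 means). MXI1 stood at -0.10, 1.04 and 0.63 on the same scale. The hypoxia + ITE means include replicate 6, where MXI1 was lowest at 25.6 CPM, and the search was not repeated without it. For MYC, whose own means moved by no more than 0.13, the nearest were ORC6, ZBTB44, THOC3, TSEN34 and CYP51A1, all at 0.01, a closeness that any gene with little change would share.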

How the data were processed

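Polyadenylated RNA of RCC4+VHL cells, from 6 independent replicates in each of 4 groups, was sequenced, and groups and replicate numbers were taken from the sample labels. The authors trimmed adaptors with Trim Galore 0.3.3, aligned reads to GRCh37 with HISAT2, removed fragments that did not map uniquely with Picard 2.0.1 and counted reads per gene symbol with HTSeq 0.5.4p3 in its strict intersection mode. The deposited values are these raw counts, not normalised, and the strand setting was not given in the sources used here. Strict intersection leaves out reads in bases shared by genes.

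The counts of 23106 symbols in 24 libraries were analysed in R 4.3.3 with edgeR 4.0.16 (limma 3.58.1). The filterByExpr function with a minimum count of 10 kept 11735 genes. Libraries were scaled by TMM, and the quasi-likelihood fit used every library and a separate mean for each group, so that all groups shared 1 estimate of the spread (biological coefficient of variation 22.0%). P-values were two-sided and adjusted by the Benjamini-Hochberg method over all genes tested, with a threshold of 0.05 and no fold minimum, in 5 comparisons. The log2 CPM behind the pattern and GC values used a prior count of 2. The procedure was tested on simulated counts of independent libraries, without GC skew or replicate effects. That test does not cover libraries that stand apart, as some did here. Exon lengths, overlaps and GC content came from GENCODE annotation on GRCh37, with GC for 90.8% of tested genes. Overlaps are of whole gene spans, introns included.

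The members and gene lists were chosen with earlier results of these data known. Named are all members, list genes past the threshold (at most 5 per list and direction), and the 5 genes nearest in pattern to MXI1 and to MYC; TXNIP, ARRDC4, MYCL1 and CDKN1A were named after their values were seen. Alternatives were DESeq2 1.42.0, RLE normalisation, no filter, the replicate number as a block, the compared groups alone, an adjusted p under 0.01, and leaving out hypoxia + DMSO replicate 2 or hypoxia + ITE replicate 6. The compared groups alone with the block, both of those libraries left out, and normoxia + DMSO replicate 4 left out were added after seeing the data. Letters before the starts of MYC and protein sequences were not used here.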

Additional observations from a re-analysis of the deposited data

Results flagged for a closer look

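Of 40 combinations of member and group, 6 held a library whose gap to its nearest neighbour was large for the range of its group by Dixon's test, where chance gives about 1 in 20, or 2. Of these, 4 were in hypoxia + ITE replicate 6. It was the highest of its group for MXD4 at 168 CPM (next 95.9), for MNT at 34.8 CPM (next 20.8) and for MLXIP at 101 CPM (next 37.9), and the lowest for MAX at 17.1 CPM. Normoxia + DMSO replicate 5 was the lowest of its group for MXI1, at 19.0 CPM with the next at 26.9. Hypoxia + ITE replicate 1 was the lowest of its group for MLX, at 18.6 CPM with the next at 24.1.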

How the results depend on the processing

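The count of members called in hypoxia with DMSO was 1, and became 2, with MNT added, under DESeq2, under the replicate block and with both doubted hypoxia libraries left out. Over the fits that left out 1 library it was 1 to 2, the 2 being without hypoxia + ITE replicate 6. In hypoxia with ITE it was 3, and became 0 with the compared groups only, 0 with the compared groups only and the block, and 1 at an adjusted p under 0.01. Over the fits that left out 1 library it was 2 to 3. No member reversed its direction past the threshold. With both ITE comparisons and the interaction, 0 members were called under every alternative run. RLE normalisation and leaving out hypoxia + DMSO replicate 2 changed no call among 50 member values.

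Replicate numbers were not treated as pairs in the main fit. Deviations of same-numbered libraries correlated over 0.1 in 4 of 6 pairs in hypoxia with DMSO, 3 in hypoxia with ITE, 5 with ITE in normoxia and 2 with ITE in hypoxia. In that order, 3, 4, 5 and 2 of 6 libraries correlated best with their own number. Mean correlations were 0.115, 0.109, 0.237 and 0.0247 for the same number, beside -0.0189, -0.0224, -0.0496 and 0.00296 for other numbers. The replicate block gave MNT 0.78 in hypoxia with DMSO (adjusted p = 0.0293) and changed no other member call.

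Over all genes, 136 were called higher and 16 lower in hypoxia with DMSO, against 203 and 45 by DESeq2, 239 and 64 without hypoxia + ITE replicate 6, 186 and 47 with the compared groups only, 201 and 57 with the block besides, 221 and 71 without both libraries, and 117 and 5 without normoxia + DMSO replicate 4. In hypoxia with ITE 222 and 54 became 505 and 178 by DESeq2, 81 and 4 with the compared groups only, and 55 and 0 with the block besides. With ITE in normoxia 6 and 0 became 12 and 1 by DESeq2, 13 and 0 with the block, 27 and 3 with the compared groups only, 160 and 95 with the block besides, 12 and 1 without hypoxia + ITE replicate 6, and 13 and 1 without both. With ITE in hypoxia 7 and 0 became 1 and 0 with the compared groups only and 4 and 0 without hypoxia + DMSO replicate 2. The cause was not tested. The lowest counts behind a member were 0 for MXD1 and 9 for MAX, both in hypoxia + DMSO replicate 2, where only large changes could be seen.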
